A study of Drosophila melanogaster with 8 samples.

Results

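A group of 10 genes known for their roles in learning and memory of the fly was followed in a ChIP-seq experiment on adult heads: dnc, rut, amn, Pka-C1, Pka-R2, CrebB, for, orb2, Fmr1 and Fas2. These 10 of 13945 protein-coding genes were chosen by name, and a peak was assigned to a gene when its summit lay in the gene or within 5 kb of it. The 4 peak lists held 20820 peaks, of which 107 met this rule. Heads came from Drosophila melanogaster of 1 to 3 days of age, and an anti-FLAG antibody was used for the precipitation. 3xFLAG-Da flies carry 3xFLAG on their own E-protein Daughterless (Da), a transcription factor of the basic helix-loop-helix class. The Control flies, white*, lack any FLAG sequence and were precipitated in the same way as a measure of background. Each line gave 2 immunoprecipitated (IP) and 2 input libraries, and only the lists of the 4 IP libraries, each called by the authors against its input, were analysed here. Whole heads were used, so the lists average over neurons, glia, eye and other head tissues, and genomic DNA carries no marker transcripts by which the tissue could be checked.

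In flies, odour memory is formed in the mushroom body, where dopamine and odour signals meet on cyclic AMP (cAMP). The adenylyl cyclase Rutabaga makes cAMP and the phosphodiesterase Dunce breaks it down. cAMP releases the catalytic subunit of protein kinase A (PKA) from its regulatory subunit, and lasting memory needs the transcription factor CREB and new protein at the synapse. Da binds E-boxes, the sequence CANNTG, as a dimer with itself or with another helix-loop-helix protein.

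Peaks were not spread evenly over the 4 lists. At the 10 genes together, the replicates of 3xFLAG-Da IP held 57 and 40 peaks, and those of Control IP held 4 and 6. The means were 48.5 ± 12.0 (SD, n = 2) and 5.0 ± 1.41 (SD, n = 2), a ratio of 9.7, and the groups did not overlap. The exact permutation test over libraries (two-sided) gave p = 0.333, the smallest value that 2 libraries against 2 can reach, so no threshold could be passed. With summits inside the genes only, the ratio was 20.0. The libraries differed in depth. In fragments per position, the coverage worked out from fold and p was 9.36 and 4.17 in the 3xFLAG-Da IP libraries and 1.92 and 1.72 in the Control IP libraries, and its part in the difference was not tested. Whole lists held 10915 and 8745 peaks in 3xFLAG-Da IP and 453 and 707 in Control IP, so the groups were apart there too. As a share of each whole list, peaks at the 10 genes made up 0.522 and 0.457% for 3xFLAG-Da and 0.883 and 0.849% for Control. The ratio at these genes was therefore below that of the whole lists. The windows of the 10 genes cover 505 kb, or 0.377% of the chromosome arms.

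**Figure D1:**
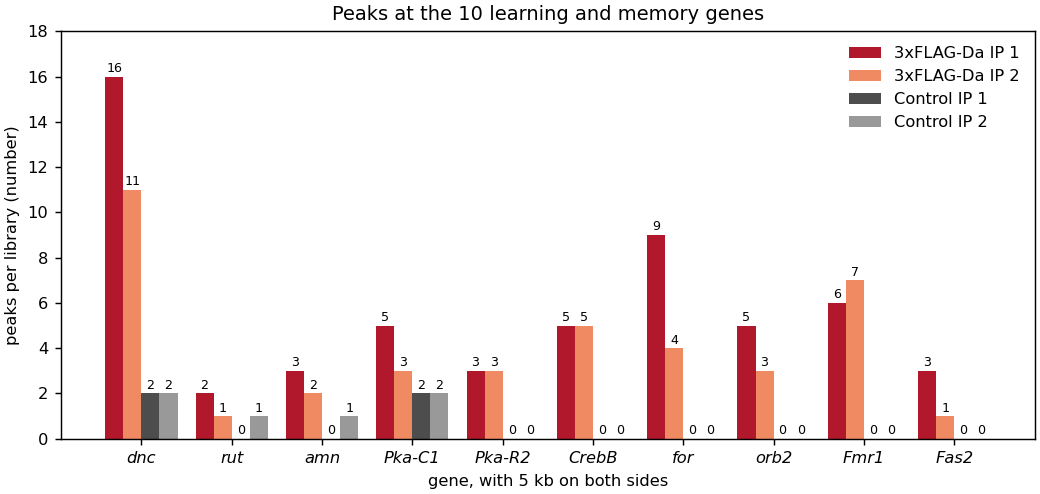
Number of peaks (vertical axis) in each of the 4 IP libraries with the summit in the gene or within 5 kb of it, for the 10 genes along the horizontal axis. The tallest bars are those of dnc, with 16 and 11 peaks in the 3xFLAG-Da libraries, and Control peaks stand only at dnc, rut, amn and Pka-C1.

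Where a peak of 3xFLAG-Da IP replicate 1 met a peak of replicate 2 by at least 1 bp, the merged region was called shared, and a shared region with no Control IP peak was called a site. This rule differs from the paper's own test of enrichment over white*, so a site here is not a binding call of the paper. The 10 genes held 37 shared regions, of which 31 were sites and 6, or 16.2%, overlapped a Control IP peak. Across the genome 8.12% of 7237 shared regions did so. Sites were present at 8 of the 10 genes. Of all protein-coding genes 65.1% had a site by this rule, and of the 1977 genes of at least 10 kb 82.9% did. The median length of the 10 genes was 24.8 kb against 2.17 kb for all, and 8 of them are of at least 10 kb, so the share among long genes is the closer background and the count lay near it. At a promoter, meaning within 1 kb of an own transcript start, 7 of the 10 genes had a site, and 38.8% of all protein-coding genes did. The promoter share was not computed for genes of at least 10 kb, so these values are not matched for length or number of promoters. A Control IP peak lay at 4 of the 10 genes, while 13.9% of all genes and 22.4% of those of at least 10 kb had one. Without 3xFLAG-Da IP replicate 2 the number of sites was 51, because the longer list then stood alone. It was 20 with summits inside the gene only, and 16 when the nearest transcript start of any gene had to be that of a listed gene.

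In strength the sites as a set lay near the middle of all sites, with a few among the highest of the genome. Fold, as deposited, divides the fragment pileup at a summit by its local background, and sites were ranked within each list so that a mean rank of 1% is near the top. The median mean rank of the 31 sites was 45.5%, against 43.5% for all 6649 sites. The number in the best 10% was 6: an intron site and the promoter site of Fmr1, an intron site of orb2, both promoter sites of CrebB, and a site downstream of Pka-R2. Between replicates the summits of a site lay a median of 35 bp apart, and at most 599 bp.

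Sequence around the summits was read next, because Da is known to bind E-boxes. Within 50 bp of the summit the E-box CAGCTG was found in 7 of the 31 sites, the E-box CAGGTG in 4 and the E-box CAGATG in 4. At least 1 of these 3 E-boxes was present in 12 sites (38.7%), against 26.4% of all sites. Without 3xFLAG-Da IP replicate 2 the share at the 10 genes was 25.5%, no longer above 26.4%, and the share over all peaks of replicate 1 alone was not computed. Among the 20 sites within 1 kb of a start of any gene, 7 had one of these E-boxes, where the share over all such sites was 24.3%. Among the 11 sites farther away, 5 had one, and over all such sites the share was 31.4%. Any of the 10 E-boxes was found in 16 sites, against 51.9% of all sites. The 6 sequences below carry an E-box at an intron, promoter or downstream site and show how differently the motif is placed. Each is 101 bp around the summit from the RefSeq genome, Release 6, on the strand of the gene, with these 3 E-boxes in capitals. CACCTG is CAGGTG read on the other strand. The Fmr1 intron sequence is 3R:10106186-10106286 (minus strand) and has 2 E-boxes with 19 bp between them. The orb2 intron sequence, 3L:8947988-8948088 (minus strand), has a CAGATG 4 bp from the summit. In the dnc intron, X:3322696-3322796 (plus strand), CAGATG and CAGCTG stand 37 bp apart. The sequence upstream of dnc promoter 8 is X:3328626-3328726 (plus strand), that of the CrebB intron X:18369861-18369961 (plus strand), and that downstream of Pka-C1 2L:9679960-9680060 (minus strand). For dnc promoter 8 the window is around the summit of replicate 1, and that of replicate 2 lay 422 bp away.
Fmr1 intron: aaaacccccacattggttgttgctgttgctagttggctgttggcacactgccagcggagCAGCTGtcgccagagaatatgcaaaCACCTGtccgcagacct
orb2 intron: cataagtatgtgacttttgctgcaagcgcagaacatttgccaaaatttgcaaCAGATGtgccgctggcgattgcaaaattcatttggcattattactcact
dnc intron: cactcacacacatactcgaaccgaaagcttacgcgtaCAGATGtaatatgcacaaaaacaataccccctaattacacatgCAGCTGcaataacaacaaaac
dnc promoter 8: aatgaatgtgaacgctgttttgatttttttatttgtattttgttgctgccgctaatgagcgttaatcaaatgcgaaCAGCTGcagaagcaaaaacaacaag
CrebB intron: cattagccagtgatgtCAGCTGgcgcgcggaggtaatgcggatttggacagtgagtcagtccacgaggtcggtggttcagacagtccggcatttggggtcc
Pka-C1 downstream: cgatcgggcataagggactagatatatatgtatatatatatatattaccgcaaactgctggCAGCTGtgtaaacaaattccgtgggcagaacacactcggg

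Some regions with high fold carried none of these E-boxes in the window. The next 3 sequences are promoter regions with high fold, the CrebB site without any E-box in this window and the shared regions of rut and Pka-C1. The rut region overlapped a peak of Control IP replicate 2 and the Pka-C1 region, with its CAGGTG in capitals as above, overlapped peaks of both Control lists. At rut a CAGCTG lay outside the printed window but within 100 bp of the summit, and at this CrebB site none of the 3 E-boxes did. They were taken from the same genome at X:18370835-18370935 (plus strand), X:14826104-14826204 (minus strand) and 2L:9699280-9699380 (minus strand).
CrebB promoter 3: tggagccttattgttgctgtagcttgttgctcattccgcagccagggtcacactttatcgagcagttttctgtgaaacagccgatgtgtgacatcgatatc
rut promoter 1: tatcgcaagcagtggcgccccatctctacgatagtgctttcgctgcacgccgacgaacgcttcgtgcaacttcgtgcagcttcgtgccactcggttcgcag
Pka-C1 promoter: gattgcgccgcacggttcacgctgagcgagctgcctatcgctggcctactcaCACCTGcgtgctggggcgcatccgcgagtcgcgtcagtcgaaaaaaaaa
The CrebB sequence holds GGTCACAC, the core promoter element Motif 1, which was found within 100 bp of the summit on either strand in 1 of the 31 sites (3.23%) and in 5.57% of all sites. Another promoter element, TATCGATA (the DNA replication-related element), was likewise found in 1 site, against 5.76% of all. GAGAG was found in 8 sites (25.8%), against 27.9% of all. These matches describe letters in a window and not binding by the factors.

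First, the enzymes that make and remove cAMP were examined. dnc (FBgn0000479, X:3176440-3343767, plus strand) encodes the cAMP phosphodiesterase whose loss impairs memory. It spans 167.0 kb, has 17 transcripts from 9 promoters and held the most sites of the 10 genes, 9, a number exceeded by 25 protein-coding genes. Per length it was not exceptional, with 0.508 sites per 10 kb of window against 0.496 per 10 kb of the chromosome arms. The 3xFLAG-Da lists held 16 and 11 peaks there and each Control list 2. Only 3 of the 9 promoters had a site within 1 kb. At promoter 2, the start of 6 transcripts, the summit lay 8 bp after the start with folds of 5.06 and 8.62 and a CAGCTG 38 bp away. Promoter 6 had a site 312 bp upstream (folds 4.92 and 3.70) and promoter 8 a site 731 bp upstream (6.37 and 5.60), where the summit of replicate 2 lay 309 bp upstream. No Control IP peak overlapped these regions. At promoter 3, replicate 1 had peaks 389 bp upstream and 74 bp downstream with folds of 2.73 and 2.98, and replicate 2 had none. Promoter 1, the 5′ end of the gene and the start of 4 transcripts, had no peak within 1 kb in any list. Another 5 sites lay in introns over 1 kb from a dnc start, with folds from 2.99 to 4.25 in replicate 1 and from 3.67 to 4.25 in replicate 2. Their mean ranks, 58.6 to 66.9%, put them in the weaker part of all sites. Of the intron sites, that at X:3322529-3322946 carried the pair of E-boxes printed above and had folds of 3.76 and 3.67. The ninth lay 136 bp past the end of the gene (3.67 and 5.41).

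A pair of shared regions at dnc overlapped Control peaks. The one 3149 bp upstream of the gene, nearest to a start of CG18508, had folds of 6.29 and 5.37 in the 3xFLAG-Da lists and of 10.7 and 12.6 in the Control lists. In fragments, its summit reached 89 over a background of 13.3 in 3xFLAG-Da IP replicate 1 and 29 over 4.59 in replicate 2. In the Control lists it reached 34 over 2.26 and 36 over 1.94. The other lay in the first intron of 4 transcripts, 11193 bp after promoter 1, with folds of 3.28 and 5.02 against 7.86 and 8.45 in Control. At both, fold was higher in each Control list than in each 3xFLAG-Da list, although fold is set by each library's own input and depth.

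rut (FBgn0003301, X:14787478-14826073, minus strand) encodes the adenylyl cyclase activated by calcium and calmodulin. Its only shared region lay 81 bp upstream of promoter 1, with folds of 9.87 and 7.92 in the 3xFLAG-Da IP replicates. No peak was listed in Control IP replicate 1, and one with a fold of 4.92 was listed in replicate 2, which removed the region from the sites. This Control peak reached 13 fragments over a background of 1.84. Without Control IP replicate 2 the region would be a site. A second rut peak, in an intron 16690 bp after promoter 3, was listed in 3xFLAG-Da IP replicate 1 alone (fold 2.77).

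The peptide gene amn (FBgn0086782, X:19886108-19890060, minus strand), whose product Amnesiac resembles peptides that stimulate cyclases, is the shortest of the 10 at 3.95 kb. Its strong region, with folds of 9.49 and 15.4, lay in a coding exon 2909 bp after the start of amn and 202 bp upstream of Hers, whose start was the nearest. Control IP replicate 2 had a peak there with a fold of 6.99, and replicate 1 had none. At the promoter of amn itself, 3xFLAG-Da IP replicate 1 listed peaks 162 bp upstream (fold 2.70) and 546 bp downstream (fold 2.99), and replicate 2 listed a peak 1007 bp upstream (fold 2.71) that overlapped neither. So no region at the amn start was shared.

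Next were the subunits of PKA. Pka-C1 (FBgn0000273, 2L:9682315-9699297, minus strand) encodes its main catalytic subunit. The region 33 bp upstream of its promoter had folds of 11.0 and 15.0 and a mean rank of 2.51%, with a CAGGTG 4 bp from the summit. Control peaks overlapped it in both lists, with folds of 4.96 and 10.2 and pileups of 17 and 33 fragments. A region 1394 bp upstream, nearest to pelo, a gene of ribosome rescue, had folds of 10.7 and 11.9 and Control folds of 7.83 and 9.03. Hence the strongest peaks at Pka-C1 were shared by all 4 libraries. The single site of the gene lay 2305 bp past its end, with folds of 5.17 and 7.04 and a CAGCTG 13 bp from the summit.

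Pka-R2 (FBgn0022382, 2R:9993890-10026042, minus strand) encodes the type II regulatory subunit, which holds the catalytic subunit inactive, and had 3 peaks in each 3xFLAG-Da list and 0 in each Control list. At its promoter the site lay 136 bp after the start, with folds of 6.33 and 6.32. A second site 707 bp upstream had folds of 4.77 and 3.04, a CAGGTG 14 bp from the summit, and a start of lncRNA:CR44294 9 bp away. The strongest, with folds of 8.65 and 14.6 and both CAGATG and CAGGTG, lay 4839 bp past the end of Pka-R2. Its nearest start was that of TER94, an AAA ATPase, at 108 bp, so distance places it with that gene.

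CrebB, for, orb2, Fmr1 and Fas2 had no Control IP peak at all. CrebB (FBgn0265784, X:18366357-18377864, plus strand) encodes CREB, the transcription factor of lasting memory, and has 10 transcripts from 4 promoters. Each of the 4 lay within 1 kb of a site. The site 122 bp upstream of promoter 1 had folds of 8.38 and 9.28, and the site 99 bp upstream of promoter 3 had 7.96 and 15.4, a mean rank of 5.77%. Promoters 2 and 4 are close neighbours of these, so the lists cannot separate the members of a pair. Between the pairs, 2 intron sites followed, with folds of 4.88 and 6.38 and of 3.75 and 3.86, and the weaker of them carried a CAGCTG 31 bp from the summit. Both were nearest to lncRNA:CR43686, which starts inside CrebB. The fifth site lay 2068 bp past the end of CrebB and 78 bp upstream of por (4.82 and 3.94).

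**Figure D2:**
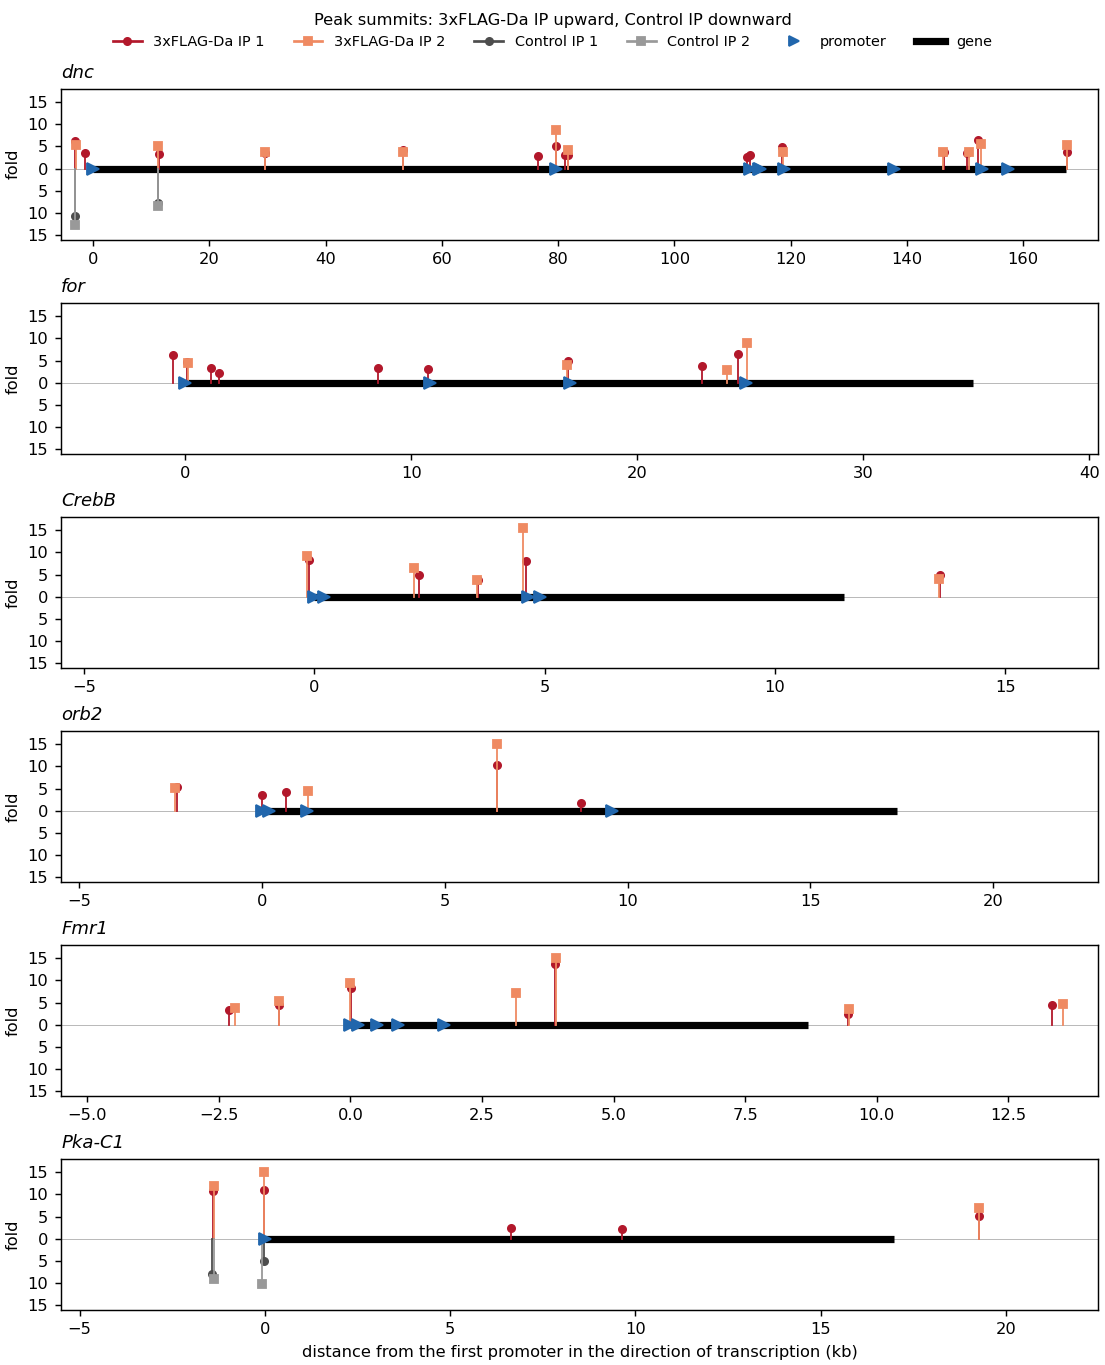
Peak summits at 6 of the genes, drawn by distance in kb from the first promoter in the direction of transcription, with the fold of each peak on the vertical axis upward for 3xFLAG-Da IP (circles replicate 1, squares replicate 2) and downward for Control IP. Blue triangles are promoters and the black bar is the gene. Control peaks appear at dnc and Pka-C1, and the highest peaks of orb2 and Fmr1 stand in introns away from the promoters.

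for (FBgn0000721, 2L:3622074-3656953, minus strand) encodes the cGMP-dependent protein kinase of the rover and sitter foraging types. It had 9 and 4 peaks in the 3xFLAG-Da IP replicates and 3 sites, each at another promoter. At promoter 4, the start of 7 of the 13 transcripts, the site lay 49 bp after the start with folds of 6.36 and 8.89 and a CAGGTG 25 bp from the summit. The summits of the replicates were 400 bp apart there. Promoter 3 had a site 113 bp upstream (4.85 and 4.05), and promoter 1 had a site 74 bp after the start (4.73 and 4.44). For promoter 2, only replicate 1 had a peak, 97 bp upstream with a fold of 3.14. The highest peak in replicate 1 with no counterpart in replicate 2, over all 10 genes, lay 554 bp upstream of for promoter 1 with a fold of 6.18.

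Of the 10 genes, 2 encode RNA-binding proteins that act in translation. orb2 (FBgn0264307, 3L:8937100-8954463, minus strand) encodes a cytoplasmic polyadenylation element binding protein needed for long-term memory. Its strongest site, with folds of 10.3 and 15.0 and a mean rank of 2.90%, lay in an intron of 6 of the 7 transcripts. It was 3145 bp upstream of promoter 4, and no start of another gene was nearer. Around promoters 1 to 3, the lists agreed less. A shared region with folds of 4.31 and 4.35 had its summits 599 bp apart. They lay 569 bp upstream of promoter 3, the start of 4 transcripts, in replicate 1 and 30 bp after it in replicate 2. For the summit of replicate 1, the nearest start was that of CG43783 at 469 bp, with one of orb2 at 472 bp. For the summit of replicate 2, starts of both genes lay 30 bp away, so distance does not separate them. In replicate 1 alone a peak stood 4 bp upstream of promoter 1 (fold 3.55) and another 835 bp upstream of promoter 4 (fold 1.74). The third site lay 2336 bp upstream of the gene at the start of mRpL12, a mitochondrial ribosomal protein gene (5.34 and 5.08).

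Fmr1 (FBgn0028734, 3R:10101420-10110121, minus strand) encodes the fly orthologue of the fragile X protein, a repressor of translation. With 6 sites in and around a gene of 8.70 kb, it had the highest number per length of the 10, 3.21 per 10 kb of window. The top site of all 31 by mean rank, 1.63%, lay in an intron common to all 11 transcripts, 2106 bp after promoter 5, with folds of 13.8 and 15.1. Its summit reached 212 fragments over 14.5 in replicate 1 and 113 over 6.57 in replicate 2. At promoter 1 a site lay 2 bp after the start (8.35 and 9.35), and no peak stood within 1 kb of promoter 5. The other 4 sites lay outside Fmr1 and were nearest to other genes. Those were mir-34 (2.36 and 3.62), lncRNA:CR43459 (4.37 and 4.77) and, for the remaining pair, the carbonic anhydrase gene CAH7 (4.38 and 5.25, and 3.36 and 3.81).

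Fas2 (FBgn0000635, X:4132887-4206093, minus strand) encodes a cell adhesion molecule of the immunoglobulin class that is abundant in mushroom body axons. It spans 73.2 kb and had 1 site. The site lay 76 bp after its start with folds of 5.02 and 5.60, and no E-box was within 50 bp. Replicate 1 also listed an intron peak 25194 bp after the start (fold 3.09) and a peak downstream at the start of GlcAT-I (fold 3.08).

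**Figure D3:**
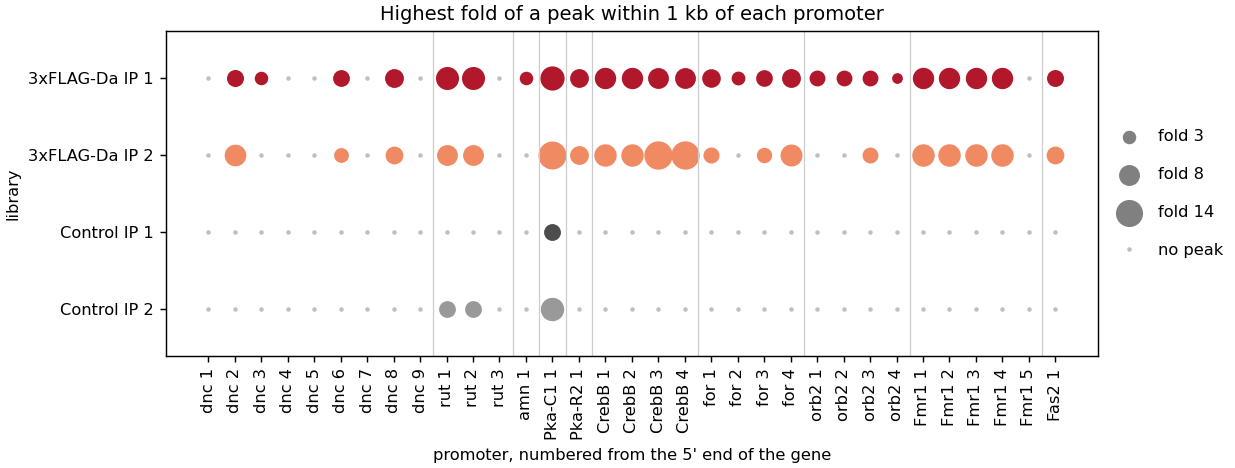
Each column is 1 of the 33 promoters of the 10 genes, numbered from the 5′ end, and each row is a library. The area of a circle is the highest fold of a peak with its summit within 1 kb, and a small grey dot marks no peak. Circles fill 26 and 20 columns in the 3xFLAG-Da rows and 1 and 3 columns in the Control rows.

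Over the 33 promoters, 19 had a site within 1 kb and 22 a shared region, among 6 genes with several promoters and 4 with 1. The same site can count for several close promoters, as at Fmr1 promoters 1 to 4 and orb2 promoters 1 to 3. At orb2 promoters 1 and 2 no summit of replicate 2 lay within 1 kb. At dnc, for, orb2 and Fmr1 some promoters had a site while others of the same gene had none, at CrebB all did, and at rut none did. For Fmr1 this rests on the limit of 1 kb, as the same site lay 896 bp from promoter 4 and 1777 bp from promoter 5. At dnc promoter 3, for promoter 2 and orb2 promoter 4, a peak within 1 kb was listed in 3xFLAG-Da IP replicate 1 alone. Of the 31 sites, 13 (41.9%) lay within 1 kb of a start of the listed gene, and 5 of these had at least 1 of the 3 E-boxes. A start of any gene was within 1 kb of 64.5% of the 31 sites and of 70.1% of all sites. By position in the listed gene, 12 summits were in introns, 7 in 5′ untranslated regions, 1 in a coding exon, 5 upstream and 6 downstream. The nearest start belonged to the listed gene for 16 sites and to another gene for 15, of which that at orb2 promoters 1 to 3 was close to a tie. Counts within 5 kb therefore cover neighbours such as TER94, por, mRpL12 and CAH7.

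**Figure D4:**
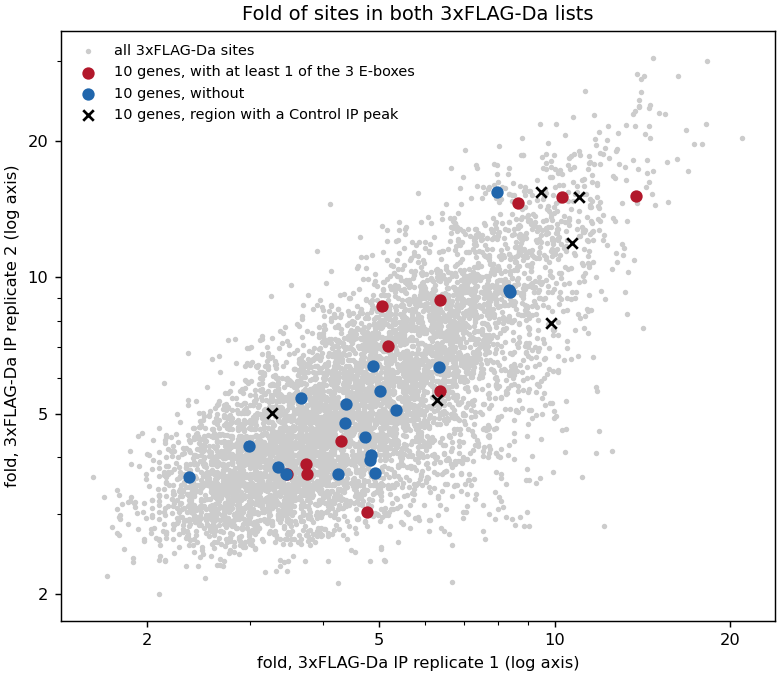
Fold in 3xFLAG-Da IP replicate 1 (horizontal) against replicate 2 (vertical), both on log axes. Grey points are all 6649 sites, coloured points the 31 sites at the 10 genes with (red) or without (blue) any of the 3 E-boxes within 50 bp, and crosses the 6 regions with a Control IP peak. The coloured points are spread over the whole grey cloud, and 4 of the 6 crosses lie in its upper part.

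How far a missing Control peak can be read depends on depth. For each site the chance of being called was computed at the coverage of each Control library, under the Poisson model and for the lower of its 2 folds. That chance was at least 0.95 in both Control libraries for 8 sites at 5 genes. These were the promoter sites 1 and 3 of CrebB, the intron and promoter sites of Fmr1, the intron site of orb2, the site at for promoter 4, and the Pka-R2 sites at the promoter and at TER94. It was under 0.5 in both for 3 sites, those near mir-34, 2061 bp after dnc promoter 2 and 707 bp upstream of Pka-R2. For these a Control call was less likely than not, so a missing Control peak says little. Between 3xFLAG-Da replicates, 37 of the 57 peaks in replicate 1 (64.9%) met a peak of replicate 2, and over the whole list 66.9% did. In the other direction 39 of 40 (97.5%) did so, against 91.9% over the whole list. The 20 peaks of replicate 1 alone had a median fold of 2.99, against 4.92 for those shared. At the coverage of replicate 2, 2 of the 20 would be called with a chance of 0.95 or more, both at for.

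Other genes of the pathway were read by the same rule from 6 lists of 53 symbols, of which 52 matched a gene. A site was present at 46 of the 52 (88.5%), a promoter site at 39 and a Control IP peak at 12. Over all protein-coding genes the shares were 65.1, 38.8 and 13.9%. The median length of the listed genes was 18.3 kb, and among genes of at least 10 kb 82.9% had a site and 22.4% a Control IP peak. A promoter share was not computed for genes of that length, so the promoter count has no background matched for length. Of the 14 genes of cAMP and PKA signalling, 13 had a site, Nf1 being the exception. The best-ranked site of that list lay 198 bp upstream of Ac78C, an adenylyl cyclase, with folds of 11.6 and 14.7. All 9 genes of RNA binding and local translation, with a median length of 8.86 kb, had a site, led by pum, a translational repressor, with an intron site 44472 bp after the nearest start (8.88 and 14.3) and a CAGCTG. All 7 genes of cell adhesion and synaptic scaffold had one too. Their best lay 1404 bp upstream of the scaffold gene dlg1 and 163 bp upstream of hop (9.33 and 12.7). Receptors had the lowest share, 6 of 9, with no site at the dopamine receptor genes Dop1R1 and Dop2R or at Rdl, which encodes a GABA receptor subunit. Their best site was assigned to DopEcR but was nearest to Cip4 (11.6 and 10.8). Of 6 genes of activity-dependent transcription, 5 had a site, Adf1 being the exception, and the best, assigned to CrebA, was nearest to AGO2 (12.1 and 13.7). Among 7 other kinases and adaptors 6 had a site, Pkg21D being the exception, and the best, assigned to gish, was nearest to Zip89B (5.93 and 8.98).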

How the data were processed

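Anti-FLAG ChIP-seq peak lists of 4 IP libraries were used, with groups and replicate numbers from the sample titles. The paper calls the replicates biological, and the labels do not say whether they came from separate fly collections. A p-value therefore measures the spread between these libraries only. Per the labels and methods, the authors mapped 75 bp single-end reads with Bowtie2 (2.5.1) to BDGP6, filtered them with SAMtools (1.12), and called peaks with MACS2 (2.2.7.1) at a q-value of 0.05, per library against its input, without pooling. The submitters' processing notes also name bcl2fastq (2.17.1.14) and deepTools (3.5.0). In the paper, Da-bound regions were then defined with DiffBind, by enrichment of peaks over white* with a fold and FDR cut-off. That step was not repeated here. The sites rest on overlap of the lists alone, so they are not the paper's set of enriched regions. The deposited fold is the authors' ratio of pileup to local background with 1 added to both. Deposited −log10 p and −log10 q values are those of the authors' MACS2 run, and the deposited score was not used further. Fold ranks were used within a list only, since lists differ in depth.

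Pileup and background were recovered from fold and −log10 p under the Poisson model of MACS2, within 0.002, for 99.3 to 100.0% of peaks per list, and the lowest common background was read as coverage (1.72 to 9.36 fragments per position). Chances of a call at another library's coverage cover counting error only. Gene models were from Ensembl release 115 and sequence from Release 6 of the RefSeq genome. Of 30748 coding transcripts 99.5% began with ATG in that sequence, and 0 peaks ran past a chromosome end. Transcript starts within 100 bp were merged into 1 promoter. Shared regions needed an overlap of 1 bp and took the summit of whichever peak ranked better by fold. E-boxes were searched on both strands within 50 bp of the summit. The test of peak numbers was an exact permutation over libraries. Counts over the 10 genes and lists were set beside all protein-coding genes, with no set test. All 10 genes are named, as are the best-ranked gene of each pathway list, the genes of a list without a site, and the gene with the nearest start for peaks described. Of the 53 listed symbols, 2 matched by an older symbol and 1 was left out because it matched several genes. Members and lists were chosen with earlier results of these data known. Scripts (Python 3.11.15, numpy 2.4.6, pandas 2.3.3, scipy 1.17.1) were tested on simulated data.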

Additional observations from a re-analysis of the deposited data

How the results depend on the processing

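The number of sites at the 10 genes was 31. It moved to 20 with summits inside the gene only and to 16 when the nearest start had to be that of a listed gene. Keeping only sites callable at Control coverage, an alternative chosen after seeing the data, left 8 sites and 5 genes with a site. These counts fall because weaker sites drop out by construction. The promoter share among the 8 was 62.5%, and the reason for its rise was not tested. Leaving out 1 library at a time gave 31 to 51 sites, 8 to 10 genes with a site, a promoter share of 41.2 to 42.4%, an E-box share of 25.5 to 38.7% and a ratio of peak numbers of 8.0 to 12.1. The highest number, 51, came without 3xFLAG-Da IP replicate 2. Without Control IP replicate 2, rut and amn gained a site each. The ratio of peak numbers was 20.0 with summits inside the genes and 12.7 within 1 kb of them. With the replicate block it was 10.5 (exact sign-flip test, p = 0.5, the smallest that 2 pairs can give), and with 2 pairs the lists cannot show whether the numbers pair the libraries. A −log10 q of at least 5 gave 32 sites at 9 genes, since the Control peak at rut falls under it. Over all results, 6 alternative values moved and 39 did not: counts stayed within 1.5 times the reported count, shares within the 95% binomial (Wilson) interval of the reported share, and ratios kept their direction and side of the threshold. The E-box share of 25.5%, without 3xFLAG-Da IP replicate 2, was inside that interval but under the 26.4% of all sites. Depth limits the Control arm: 3 sites had a chance under 0.5 of being called in either Control library, and only 8 had at least 0.95 in both. It also limits 3xFLAG-Da IP replicate 2. Of the 20 peaks of replicate 1 alone, 4 had a chance under 0.5 of a call there and only 2 had at least 0.95.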
